A study of Mus musculus with 18 samples.

Results

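The serpins are a superfamily of proteins that share a fold, and most of them inhibit proteases. The table of gene expression from Ptf1a-expressing tissues listed 63 genes whose symbol is Serpin followed by a clade letter from a to i and a number, among 23228 genes in all. All 63 were taken as members whatever their level, including 2 pseudogenes by symbol. Expression had been measured by RNA sequencing in 2 mouse samples of the ICR strain, labelled wild type. The first was GFP-positive cells sorted from dissociated E12.5 neural tubes of embryos carrying 2.3Ptf1a-GFP, a transgene in which the 2.3 kb autoregulatory enhancer of Ptf1a and a beta-globin basal promoter drive GFP. The second was whole, unsorted E15.5 pancreas without a named transgene. The labels named 2 libraries for each sample, but the table held 1 value per gene and sample, so each value is the authors' pooled value and no SD, test or replicate check can be given.

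An inhibitory serpin presents an exposed reactive centre loop near its carboxyl end as bait. When a protease cuts the loop, the serpin inserts it into its own main sheet and holds the protease in a distorted, covalently trapped form, so each molecule works once. Clade A holds the secreted antitrypsins and antichymotrypsins together with hormone carriers that no longer inhibit proteases, clade B holds intracellular inhibitors, and clades C to I are small groups with roles in clotting, fibrinolysis, complement, collagen folding and the nervous system. Pancreas makes digestive proteases as inactive zymogens, and a developing neural tube uses plasminogen activators and their inhibitors during cell migration and neurite growth.

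Values are FPKM, the fragments of a gene per kilobase of its transcript and relative to all mapped fragments, and may be compared between genes because they are per length. A difference is log2(FPKM + 1) in neural tube minus that in pancreas. A gene was called higher in a sample when this scale differed by at least 2 (4 times) and its higher value was at least 5 FPKM, and similar when both values were at 5 FPKM or more with a ratio of at most 2. Both rules concern size alone. From the lowest recurring steps of the values, 1 fragment on a 1 kb transcript was worth about 0.0407 FPKM in neural tube and 0.0245 FPKM in pancreas, a depth about 1.66 times greater in pancreas. A value listed at 0 is given as such with no fold, because genes in general use can be listed at 0 here (Eif3j, a translation initiation factor subunit, was at 0 FPKM in the sorted cells but 47.1 in pancreas). The neural tube sample carried the markers of its label. All 7 neuronal markers found in the table were called higher there, as were 8 of 9 inhibitory dorsal interneuron markers. The exception, Ptf1a, was at 22.5 FPKM there and 37.1 in pancreas. The sorted cells also held erythroid RNA. The 8 erythroid markers summed to 1229 FPKM there and 15910 in pancreas, with 2 called toward neural tube and 4 toward pancreas. Hba-a1 was at 587 FPKM in the sorted cells and 14315 in pancreas, and Hba-x at 481 and 33.6. The part of such cells in the serpin values was not tested. In pancreas 13 of 14 acinar markers were called higher, and the lipase-related gene Pnliprp1 was listed at 0.

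Serpin expression was lower in the sorted neural tube cells for every member that reached 1 FPKM. Of the 63 genes, 18 (28.6%) reached 1 FPKM in either sample, against 61.6% of all genes listed, and all 18 had the lower value in the sorted cells. At that level, 52% of all 14303 genes had the lower value in the sorted cells. The median difference of the 18 was -2.48, beside -0.07 for all 14303 genes. All 18 reached that level in pancreas and 6 of them in the sorted cells, so the other members had to be lower in the sorted cells to enter at all. Over all 63 serpins, most of them near 0 in both samples, the median was -0.0901. The medians and the counts of direction given further on for clades and lists have the same minimum. By the rule of size 10 serpins were called higher in pancreas and 0 in the sorted cells, of 14 at 5 FPKM or more, against 11.9% of the 10744 genes at that level called toward pancreas and 10.3% toward neural tube. Over all genes listed those percentages are 5.5% and 4.76%, while 15.9% of all 63 serpins were called toward pancreas. All of the 14 reached 5 FPKM in pancreas and 5 of them in the sorted cells. The rest of the 14 thus passed that level only through pancreas, where they are high. The shares of all genes also stand beside the counts of calls given further on for clades and lists. In bulk samples such as these, fewer cells of a type and less RNA per cell cannot be told apart. Tissue, stage, sorting, RNA extraction and possibly library preparation also differed between the same samples and cannot be told apart from one another.

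**Figure D1:**
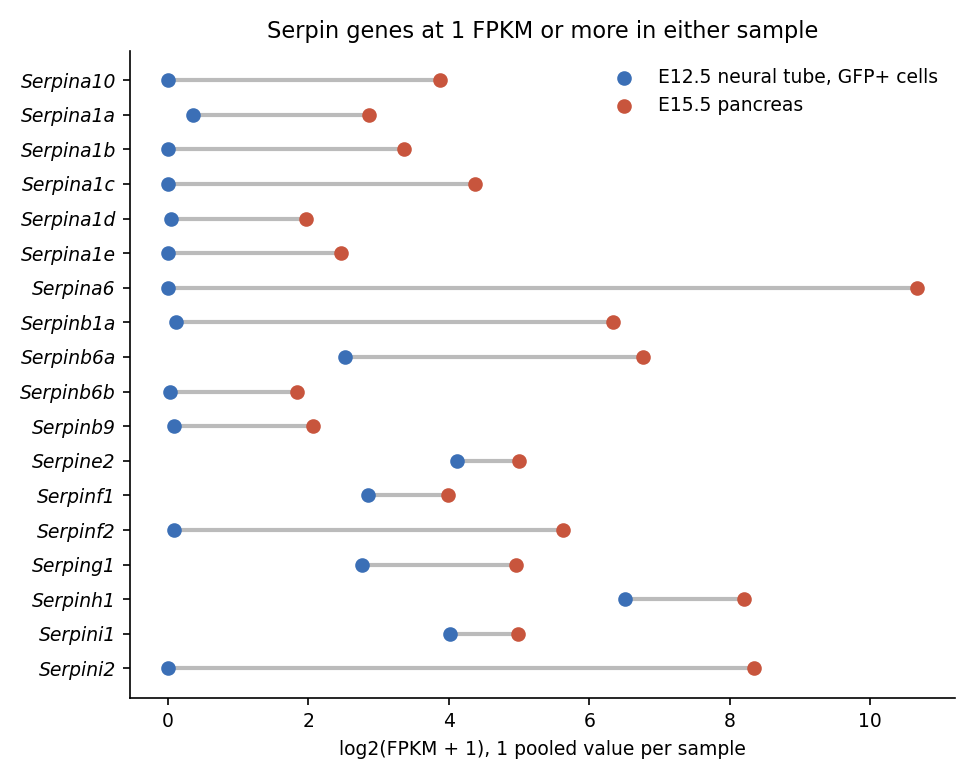
Level of the 18 serpin genes that reached 1 FPKM, as log2(FPKM + 1) on the horizontal axis, with 1 pooled value per sample (blue, E12.5 neural tube GFP-positive cells; red, E15.5 pancreas) and a grey line joining the values of a gene. The red point is to the right of the blue point for all 18 genes, and the lines are shortest for Serpine2 and Serpini1 and longest for Serpina6.

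The serpins summed to 140.1 FPKM in the sorted cells, or 0.0307% of all FPKM, and to 2657 FPKM in pancreas, or 0.377%. The ratio of these sums was 19.0, and it was 7.33 without Serpina6. Different clades filled the sum in each sample. In neural tube clade H, which is Serpinh1 alone, gave 64.3% of the serpin total, followed by clade E with 11.8% and clade I with 10.8%. In pancreas clade A gave 63.5%, clade I 13.4%, clade H 11.1% and clade B 7.30%. Clade A gave 0.363% of the serpin total in the sorted cells.

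**Figure D2:**
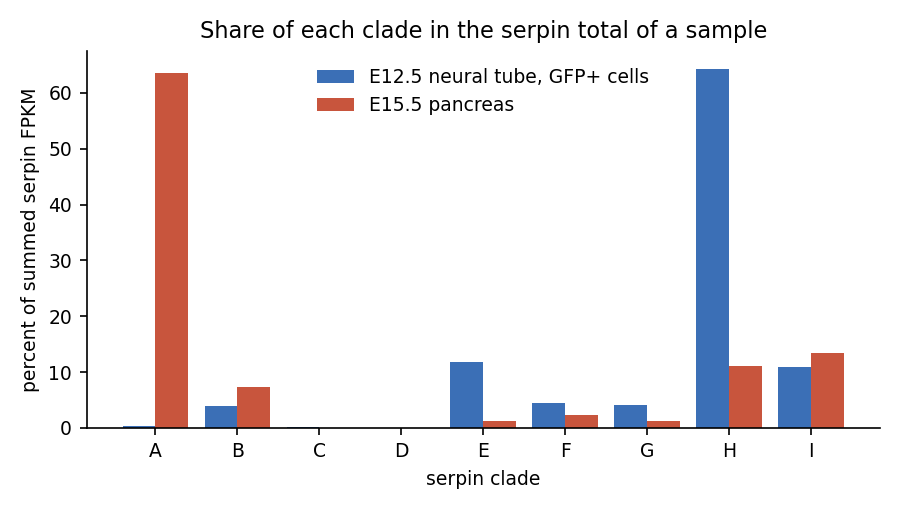
Share of each serpin clade in the summed serpin FPKM of a sample, in percent (blue bars, E12.5 neural tube GFP-positive cells; red bars, E15.5 pancreas; clades A to I on the horizontal axis). Clade H stands at 64.3% in the sorted cells and clade A at 63.5% in pancreas.

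Clade A was expressed in pancreas and hardly in the sorted cells, and a hormone carrier led it. Of 25 clade A genes, 7 reached 1 FPKM, all in pancreas. Of the 25, 5 were called higher there, against 5.5% of all genes listed. The median difference of the 7 was -3.36, which the entry through pancreas alone makes low, and over all 25 genes it was -0.0779. No clade A gene exceeded 0.286 FPKM in the sorted cells.

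Serpina6 encodes corticosteroid-binding globulin, the plasma carrier of glucocorticoids, which does not inhibit proteases. It stood at 1629 FPKM in pancreas and was listed at 0 in the sorted cells. It ranked at position 80 among all genes in pancreas and held 61.3% of the serpin total there. Among the 4731 genes listed at 0 in the sorted cells only 4 had higher pancreas values, which put Serpina6 at position 5. The gene lies at chr12:104884840-104895422 on the minus strand (NCBIM37, the same build as mm9). Its longest annotated transcript has 1605 bases, on which 3 fragments would be worth about 0.0761 FPKM in the sorted cells. Genes that handle the carried hormone went in both directions. Nr3c1, the glucocorticoid receptor, was at 18.02 FPKM in pancreas and 0.230 in the sorted cells, whereas Hsd11b2, which inactivates glucocorticoids, was at 36.0 FPKM in the sorted cells and 1.56 in pancreas. The receptor co-chaperones Fkbp4 (201 and 157 FPKM in the sorted cells and pancreas) and Fkbp5 (21.0 and 12.1) were similar. Of the 6 genes of this list 1 was called toward each sample, and the median of the 4 at 1 FPKM was 0.56.

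The Serpina1 genes encode alpha-1-antitrypsins, a family of secreted protease inhibitors, and mouse carries several copies side by side. In pancreas Serpina1c was highest at 19.7 FPKM, followed by Serpina1b at 9.27, Serpina1a at 6.26, Serpina1e at 4.53 and Serpina1d at 2.89. In neural tube Serpina1b and Serpina1e were listed at 0, Serpina1a was at 0.286 FPKM, Serpina1d at 0.0305 and Serpina1c at 0.000789. The last value is far under that of 1 fragment, so it is no whole fragment count. Serpina1a, Serpina1b and Serpina1c were called higher in pancreas, and the other two missed the level of 5 FPKM. The calls of Serpina1a and Serpina1b were lost with a pseudocount of 5 FPKM or a minimum of 10 FPKM, and that of Serpina1a also with a fold rule of 8 times.

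The division of reads among these copies is uncertain. Their coding sequences, each of 1242 bases, were 96.3% to 98.6% identical in pairs. The 5 copies together summed to 42.6 FPKM in pancreas and 0.317 in the sorted cells, a sum that, apart from differences in transcript length, does not depend on how reads were divided among them. Of 86 positions that varied among the 5 coding sequences, 18 fell within one stretch of 60 bases that ends 82 bases before the end of the coding sequence, in the part that encodes the reactive centre loop. The median stretch of that length held 4. That stretch is shown because it is where the copies, and the baits they encode, differ most. Sequences are from GENCODE M1 transcripts, coding bases 1101 to 1160, 5′ to 3′, with capitals at positions where at least 1 of the 5 differs from the others:
Serpina1a (chr12:105091967-105092026, minus strand): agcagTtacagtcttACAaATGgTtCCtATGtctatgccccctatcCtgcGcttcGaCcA
Serpina1b (chr12:104966534-104966593, minus strand): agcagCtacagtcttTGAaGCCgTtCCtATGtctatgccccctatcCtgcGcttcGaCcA
Serpina1c (chr12:105133304-105133363, minus strand): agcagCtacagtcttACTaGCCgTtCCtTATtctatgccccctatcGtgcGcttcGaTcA
Serpina1d (chr12:105001972-105002031, minus strand): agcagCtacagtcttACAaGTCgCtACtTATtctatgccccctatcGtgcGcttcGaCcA
Serpina1e (chr12:105185310-105185369, minus strand): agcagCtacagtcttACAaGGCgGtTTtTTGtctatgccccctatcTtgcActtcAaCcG
Within the stretch, Serpina1c and Serpina1d differed at the fewest positions, 5, and Serpina1e differed from Serpina1a and from Serpina1c at 12 each. Over the whole coding sequence the closest pair was Serpina1a and Serpina1c, with 19 differing bases.

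Serpina10 encodes the protein Z-dependent inhibitor of clotting factor X. It was at 13.6 FPKM in pancreas, listed at 0 in the sorted cells and called higher in pancreas, except with a pseudocount of 5 FPKM. The other 18 clade A genes stayed under 1 FPKM in both samples. The highest of them was Serpina3g at 0.986 FPKM in pancreas and 0.0222 in the sorted cells. The 11 Serpina3 genes, relatives of antichymotrypsin, summed to 1.77 FPKM in pancreas and 0.192 in the sorted cells. Serpina12 and Serpina4-ps1 were listed at 0 in both samples.

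Liver also makes Serpina1, Serpina6 and Serpina10 proteins, and hepatocyte markers also had a larger sum in pancreas. Of 12 such markers 5 were called higher there and 9 reached 1 FPKM, all 9 with the lower value in the sorted cells, and they summed to 348 FPKM in pancreas and 17.5 in the sorted cells. Transthyretin, Ttr, which islet cells also make, was 278 FPKM of the pancreas sum. Alb, encoding albumin, was at 12.4 FPKM in pancreas, Afp at 19.1, Apoa1 at 2.89 and Fga at 0.429. In neural tube Alb, Apoa2, Fgb, Fga and Ahsg were listed at 0. The part of these cells in the clade A values was not tested.

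The intracellular clade B had few active members. Of 27 genes 4 reached 1 FPKM, all in the chromosome 13 group. Of the 27, 2 were called higher in pancreas, which is near the 5.5% of all genes listed. The median difference of the 4 was -3.12, and over all 27 genes it was -0.0170. Serpinb1a, Serpinb6b and Serpinb9 reached 1 FPKM in pancreas alone. The other 23 did not exceed 0.359 FPKM in pancreas or 0.164 in the sorted cells, and 7 of them were listed at 0 in both samples.

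Serpinb6a and Serpinb1a were the clade B genes of pancreas. Serpinb6a, an inhibitor of trypsin-like proteases and of cathepsin G, was at 107 FPKM in pancreas and 4.72 in the sorted cells, a difference of -4.25 and a direct FPKM ratio of 22.8. Its annotated span overlaps 3 genes on the opposite strand, of which Nqo2, at 5.70 FPKM in pancreas and 1.53 in the sorted cells, overlaps it over 23807 bases. Whether the counting used strand is not given in the sources used here. Serpinb1a, the inhibitor of neutrophil elastase and related leukocyte proteases, was at 79.6 FPKM in pancreas and 0.0881 in the sorted cells. Serpinb9, the inhibitor of granzyme B, was at 3.20 FPKM in pancreas and 0.0592 in the sorted cells, and Serpinb6b was at 2.59 and 0.0228. Both were under the level of 5 FPKM.

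The close relatives of these genes were near 0. Serpinb1b was at 0.0794 FPKM in pancreas and 0.164 in the sorted cells, and Serpinb1c at 0.126 and 0.0271. Serpinb1 coding sequences were 86.4% to 90.1% identical. Serpinb6c was at 0.0671 FPKM in pancreas and 0.137 in the sorted cells, with Serpinb6 coding sequences 69.9% to 85.7% identical. Only 5 of the 63 serpins had the higher value in the sorted cells, namely Serpinb1b, Serpinb6c, Serpinb9d, Serpinb9f and Serpinb9g. Their neural tube values ran from 0.0219 to 0.164 FPKM, near the level of a few fragments. These genes were named after their values were seen.

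Leukocyte markers, whose cells use clade B inhibitors, also had larger sums in pancreas. Of 10 macrophage markers 7 were called higher there and all 10 had the lower value in the sorted cells, with sums of 247 FPKM in pancreas and 8.37 in the sorted cells. None was listed at 0. Of 12 granulocyte and mast cell markers 5 were called higher in pancreas, with sums of 495 and 34.3 FPKM. Most of the pancreas sum was S100a8, at 210 FPKM, and S100a9, at 154. Elane, the neutrophil elastase gene, was at 0.276 FPKM in pancreas and 0.0527 in the sorted cells, and Ctsg, the cathepsin G gene, at 0.382 and 0.0947. Of the 9 markers at 1 FPKM, 7 had the lower value in the sorted cells. The exceptions were the receptor gene Kit, at 31.6 FPKM in the sorted cells and 12.9 in pancreas, and the protease gene Prtn3, at 2.39 and 0.650. S100a8, S100a9, Mcpt4, Cma1, Tpsb2 and Fcer1a were listed at 0 in the sorted cells. The part of these cells in the clade B values was not tested.

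**Figure D3:**
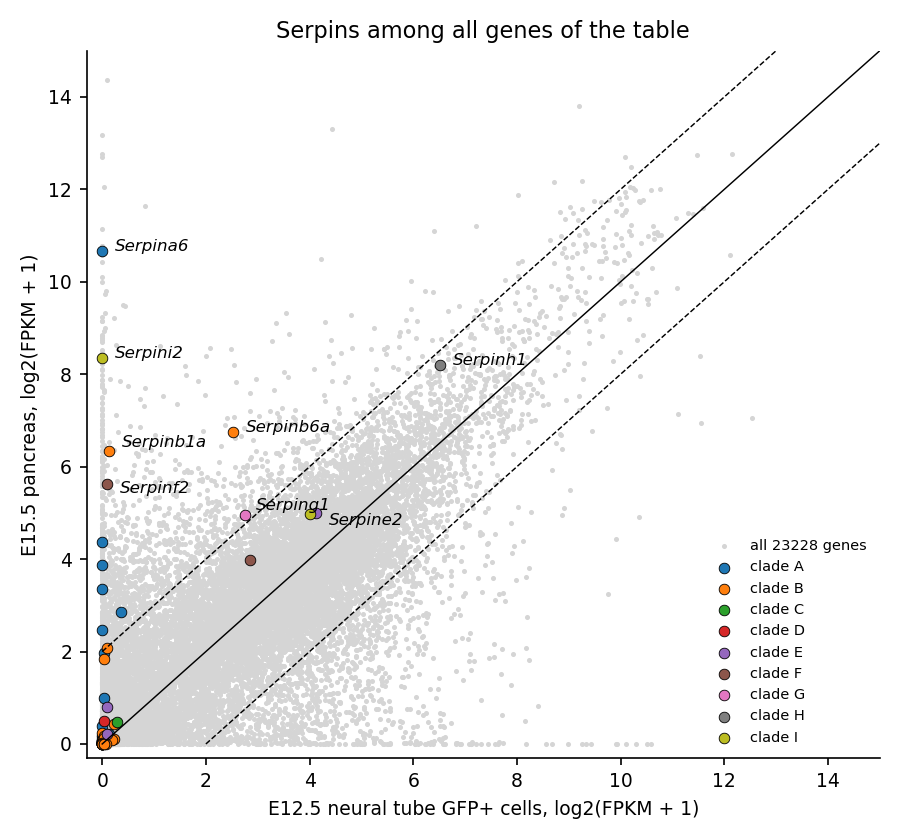
Level in E15.5 pancreas against level in E12.5 neural tube GFP-positive cells, both as log2(FPKM + 1), for all 23228 genes (grey) and the 63 serpins (coloured by clade). The solid line marks equal values and the dashed lines a difference of 2 (4 times). No serpin lies below the lower dashed line, and Serpina6, Serpini2, Serpinb1a and Serpinf2 stand near the left edge at high pancreas levels.

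Serpins of clotting and fibrinolysis split by gene. Serpinf2, encoding alpha-2-antiplasmin, the main inhibitor of plasmin, was at 48.2 FPKM in pancreas and 0.0621 in the sorted cells and was called higher in pancreas. Serpinc1, encoding antithrombin, was at 0.395 FPKM in pancreas and 0.213 in the sorted cells, and Serpind1, encoding heparin cofactor II, at 0.403 and 0.0191. Both of these were under 1 FPKM in both samples.

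The serpins of tissue proteases and extracellular matrix were the ones that neural tube cells also expressed. The 5 serpins at 5 FPKM or more in the sorted cells were Serpine2, Serpini1, Serpinf1, Serping1 and Serpinh1, and their pancreas values were 1.88 to 5.22 times higher. Only Serping1 passed the rule of size.

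Serpine2 encodes protease nexin-1, a cell-surface inhibitor of thrombin and plasminogen activators. It was at 16.4 FPKM in the sorted cells and 30.9 in pancreas, and was the only serpin called similar, where 65.9% of the 7037 genes that reached 5 FPKM in each sample were. Serpini1 encodes neuroserpin, an inhibitor of tissue plasminogen activator that neurons secrete. It was at 15.2 FPKM in the sorted cells and 30.6 in pancreas, a ratio of 2.02 that lies just outside the limit of 2 times. Endocrine markers, whose cells share many genes with neurons, were called higher in pancreas for 7 of 10, and their sum was 2861 FPKM there and 173 in the sorted cells, where Ins1, Ins2, Ppy and Iapp were listed at 0. Most of the sum in the sorted cells was Sst, the somatostatin gene, at 144.5 FPKM there and 41.0 in pancreas. Neurod1, a transcription factor gene of endocrine cells and neurons, was also higher in value there, at 11.95 against 6.63 FPKM. The part of endocrine cells in the Serpini1 value was not tested.

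Serpinf1 encodes pigment epithelium-derived factor, a secreted neurotrophic and anti-angiogenic protein that does not inhibit proteases. It was at 6.18 FPKM in the sorted cells and 14.9 in pancreas. Serping1, encoding the C1 inhibitor of complement and of the contact system, was at 5.78 FPKM in the sorted cells and 30.2 in pancreas. Its difference of -2.20 lay close to the limit and was -1.65 with the samples rescaled to equal totals, -1.81 with the housekeeping list and -1.89 without the 50 highest genes of each sample, which ends the call, as do a pseudocount of 5 FPKM and a fold rule of 8 times.

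Serpinh1 encodes Hsp47, a collagen chaperone of the endoplasmic reticulum. It was the highest serpin of neural tube at 90.1 FPKM, and stood at 294 FPKM in pancreas, a difference of -1.70 and a direct FPKM ratio of 3.27. The collagens it folds differed by more. Of 19 genes for collagens and their folding enzymes 13 were called higher in pancreas and 0 in the sorted cells, with a median difference of -2.60. All 19 reached 5 FPKM, a level at which 11.9% of all genes were called toward pancreas and 10.3% toward neural tube. Col6a1 and Col6a2 had the largest differences, at 90.9 and 89.8 FPKM in pancreas against 0.633 and 1.36. The smallest were those of P4ha1, a subunit of prolyl hydroxylase, at 14.0 in pancreas and 10.7 in the sorted cells, and of the lysyl hydroxylase gene Plod3, at 19.6 and 28.1. Col1a1 and Col3a1 were at 244 and 469 FPKM in pancreas and at 10.9 and 11.2 in the sorted cells. Mesenchyme markers, which include these collagens, were called higher in pancreas for 7 of 11 and in the sorted cells for 1, Twist1, at 15.8 FPKM there and 1.39 in pancreas. The list had sums of 1614 FPKM in pancreas and 540 in the sorted cells, of which Vim, also a progenitor gene, gave 477 at a pancreas value of 273. None was listed at 0, and their part in the Serpinh1 value was not tested.

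Serpini2 was the second serpin of pancreas. It encodes pancpin, a secreted serpin known from acinar cells. It stood at 324 FPKM in pancreas, at position 289 among all genes, and was listed at 0 in the sorted cells. Acinar markers were far higher in the same sample. All 13 acinar markers at 1 FPKM were called higher in pancreas, with sums of 47625 FPKM there and 1.14 in the sorted cells, where Clps, Prss2, Ctrc and Zg16 were listed at 0. Duct, endocrine and mesenchyme markers also had most of their members called higher in pancreas, and the part of any of these cells in the Serpini2 and Serpina6 values was not tested. Of the 14 serpins at 5 FPKM or more in pancreas, 4 (Serpina6, Serpini2, Serpina10 and Serpina1b) were listed at 0 in the sorted cells, against 2% of the 8916 genes at that level.

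Serpins that lie side by side differed widely in level. The clade A cluster spans chr12:104854885-105652539 (NCBIM37), holds 24 of the 25 clade A genes and no other listed gene, and had pancreas values from 0 to 1629 FPKM. All 7 members at 1 FPKM lay among the first 8 in chromosome order, from Serpina10 to Serpina1e. Serpina1f, at 0.135 FPKM in pancreas, was the exception within that run and is the next listed gene beside Serpina6, at a distance of 30.8 kb. Outside the cluster, Ppp4r4 on the Serpina10 side was at 4.03 FPKM in pancreas and 0.909 in the sorted cells, and Gsc on the other side at 0.0657 and 0.117. The chromosome 1 group of 12 clade B genes, chr1:108757750-109505486, had no member above 0.359 FPKM in either sample. In the chromosome 13 group, chr13:32933961-34094663, 4 of 15 serpins reached 1 FPKM, and the highest, Serpinb1a and Serpinb6a, were at its ends. Wrnip1, beside Serpinb1a, was at 19.2 FPKM in pancreas and 17.0 in the sorted cells.

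**Figure D4:**
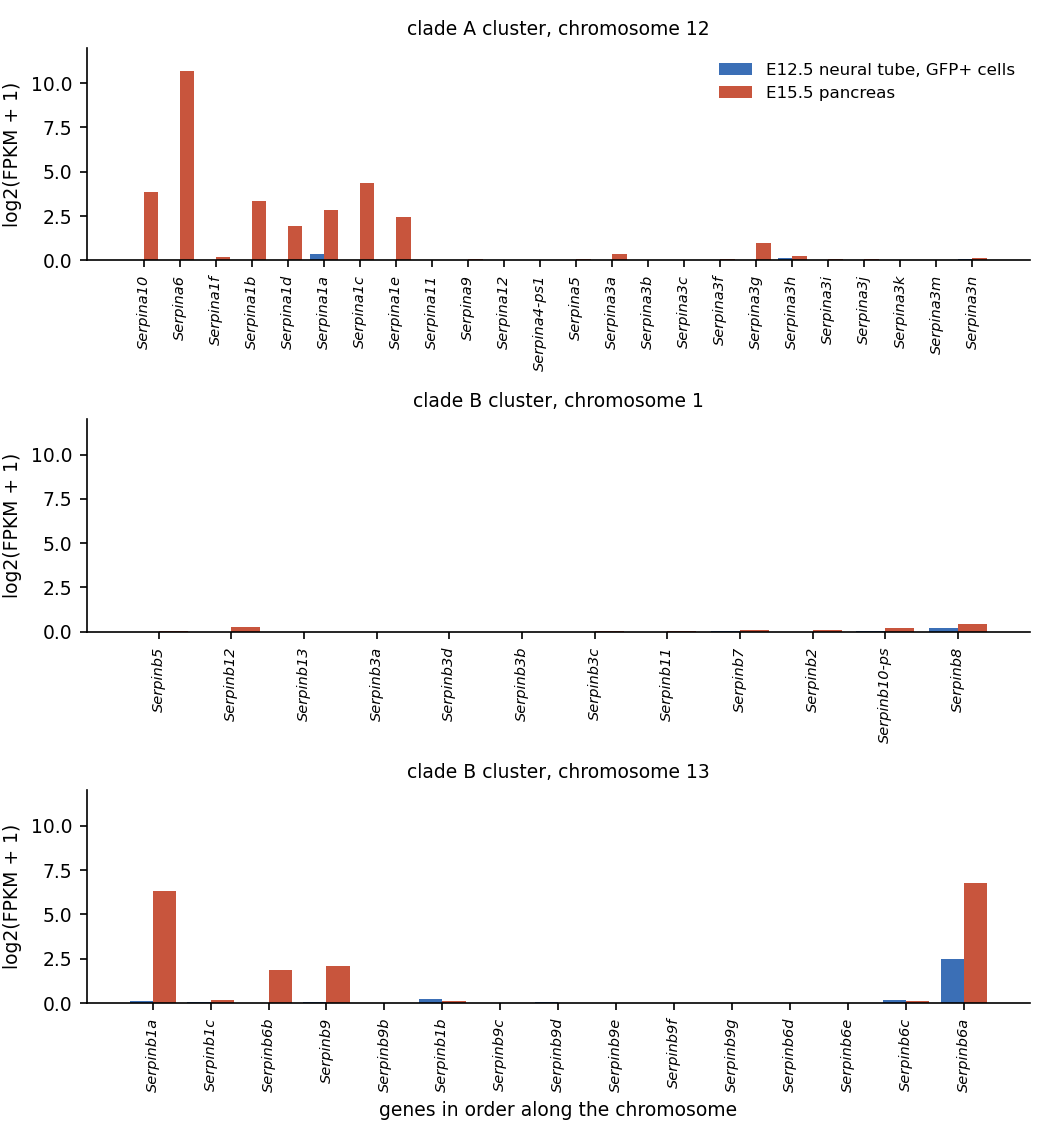
Level of each serpin gene in the 3 chromosomal clusters, as log2(FPKM + 1), with genes in order along the chromosome (blue bars, E12.5 neural tube GFP-positive cells; red bars, E15.5 pancreas; 1 pooled value each). In the chromosome 12 cluster, red bars of 1 FPKM or more are limited to the Serpina10 to Serpina1e side. In the chromosome 13 cluster 4 genes have such bars, and those of Serpinb1a and Serpinb6a are the tallest. No bar of the chromosome 1 cluster rises above 0.359 FPKM.

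The pairs of clades F and I each joined a gene expressed in both samples to one seen almost only in pancreas. Serpinf1 (chr11:75223271-75236203) and Serpinf2 (chr11:75245234-75253093) lie 9.03 kb apart on the minus strand, with coding sequences 55.6% identical. Their differences were -1.14 and -5.53. Serpini2 (chr3:75046292-75074000) and Serpini1 (chr3:75361469-75447417) lie 287 kb apart on opposite strands, with coding sequences 58.4% identical and differences of -8.35 and -0.97. Pdcd10, a vascular adaptor gene, lies between them on the minus strand, and 690 bases separate its annotated start from that of Serpini1. Pdcd10 was at 34.9 FPKM in pancreas and 5.57 in the sorted cells.

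The 250 bases before the start of these 4 genes are shown because the genes of each pair share a chromosome region with unequal contrasts. They come from RefSeq (table on GRCm38.p6), and each was found at a single place in NCBIM37, whose coordinates are given. The RefSeq start matches the gene span above for Serpini2 and not for the others: the Serpinf1 and Serpinf2 windows lie partly inside the annotated gene, and the Serpini1 window ends before it. The PTF1 complex of Ptf1a, an E protein and Rbpj or Rbpjl binds an E-box next to a TC-box. Capitals mark the E-box CANCTG and the TC-box TGGGAA, searched on both strands. The motifs do not overlap here:
Serpini2 (chr3:75074001-75074250, minus strand): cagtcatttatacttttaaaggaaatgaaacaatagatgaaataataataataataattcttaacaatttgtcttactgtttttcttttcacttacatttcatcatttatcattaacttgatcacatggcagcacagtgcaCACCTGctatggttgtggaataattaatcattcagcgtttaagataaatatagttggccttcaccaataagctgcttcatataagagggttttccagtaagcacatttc
Serpini1 (chr3:75361165-75361414, plus strand): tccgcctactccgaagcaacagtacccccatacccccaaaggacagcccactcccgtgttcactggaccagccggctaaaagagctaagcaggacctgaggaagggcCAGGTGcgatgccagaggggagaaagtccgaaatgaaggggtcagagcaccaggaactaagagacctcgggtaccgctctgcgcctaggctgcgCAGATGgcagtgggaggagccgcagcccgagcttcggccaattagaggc
Serpinf2 (chr11:75253004-75253253, minus strand): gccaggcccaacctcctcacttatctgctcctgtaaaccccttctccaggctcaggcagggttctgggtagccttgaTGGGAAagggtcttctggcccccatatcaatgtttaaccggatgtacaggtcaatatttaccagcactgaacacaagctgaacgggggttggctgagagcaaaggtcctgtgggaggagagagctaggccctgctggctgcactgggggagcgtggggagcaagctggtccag
Serpinf1 (chr11:75236126-75236375, minus strand): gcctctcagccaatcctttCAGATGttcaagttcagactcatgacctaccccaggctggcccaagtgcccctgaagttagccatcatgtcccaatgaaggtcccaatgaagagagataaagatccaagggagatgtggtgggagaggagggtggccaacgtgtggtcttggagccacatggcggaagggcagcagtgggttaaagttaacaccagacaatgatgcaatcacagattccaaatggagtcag
Counted back from the start site, the E-box of Serpini2 began at -109, those of Serpini1 at -143 and -49 and that of Serpinf1 at -231, while the TC-box of Serpinf2 began at -173. No window held both motifs. Of 15 such windows for 14 of the 18 serpins at 1 FPKM, 6 held the E-box and 3 the TC-box. Of all 32851 windows, 44.8% held the E-box, 21.6% the TC-box and 10.1% both, so the serpin shares of 40% and 20% are near those of all genes. A match is a description of the letters and not a site of binding. Serpina6, Serpina10, Serpinb1a and Serping1 had no entry.

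Proteases that serpins inhibit, and other protease inhibitors, had more calls toward pancreas than toward neural tube. Of 36 target proteases measured, 24 reached 1 FPKM, 11 were called higher in pancreas and 1 in the sorted cells. The median difference of the 24 was -2.53. Over all genes listed, 5.5% were called toward pancreas and 4.76% toward neural tube. The calls toward pancreas included the digestive proteases Prss1, Prss2, Ctrb1, Cela1, Cela2a and Cela3b. The largest differences were those of the digestive proteases Ctrb1, chymotrypsinogen B, at 21063 FPKM in pancreas against 0.0688 in the sorted cells, and Cela3b, an elastase, at 893 against 0.0545. The smallest among members at 5 FPKM were those of the proprotein convertase gene Furin, at 10.1 and 7.67, and of Plat, tissue plasminogen activator and the target of neuroserpin, at 11.5 FPKM in pancreas and 8.20 in the sorted cells. Masp1, a protease of the lectin pathway that C1 inhibitor blocks, was the call toward neural tube, at 5.33 FPKM against 0.264 in pancreas. Plg, the precursor of plasmin, was at 0.691 FPKM in pancreas and 0.0148 in the sorted cells, although its inhibitor gene Serpinf2 was at 48.2 in pancreas. Prtn3, a leukocyte protease, was at 2.39 FPKM in the sorted cells and 0.650 in pancreas.

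The plasminogen activation genes had 4 calls toward pancreas among 9 in the table and 0 toward neural tube, with a median of -2.06. Vtn, encoding vitronectin, an adhesive plasma and matrix protein, was at 66.1 FPKM in pancreas and 1.80 in the sorted cells, and Anxa2, a plasminogen receptor subunit, was at 237 and 6.78. Thbd, encoding thrombomodulin, was at 6.83 FPKM in pancreas and 0.111 in the sorted cells. Endothelial markers, whose cells make thrombomodulin, were called higher in pancreas for 6 of 9, with sums of 142 FPKM in pancreas and 24.6 in the sorted cells, and none was listed at 0. Their part in these values was not tested.

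Other protease inhibitors resembled the serpins in direction. Of 31 genes 20 reached 1 FPKM, all 20 with the lower value in the sorted cells, and 12 were called higher in pancreas and 0 in the sorted cells. Members that reached 1 FPKM in pancreas alone, such as Spink3 and Ambp, had to have the lower value in the sorted cells. The median of the 20 was -2.30, and over all 31 genes it was -1.27. Spink3, an inhibitor of trypsin in acinar cells, was at 1105 FPKM in pancreas and Ambp at 254, both listed at 0 in the sorted cells. Pebp1, a kinase inhibitor protein that also blocks some proteases, was similar at 469 in pancreas and 335 in the sorted cells, and the metalloprotease inhibitor Reck was at 7.26 and 2.88. Among 13 lysosomal cathepsins, 5 were called higher in pancreas and 0 in the sorted cells, with a median of -2.01. The largest were Ctsc, at 22.3 FPKM against 0.949, and Ctsh, at 15.3 against 0.488. The smallest were Ctsf, at 12.5 and 9.33, and Ctsa, at 24.7 and 15.9.

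The receptors that clear serpin and protease complexes, listed with the receptor-associated protein gene Lrpap1, were the one partner list without a call toward pancreas. Of 7 genes 2 were called higher in the sorted cells, with a median of 0.44. Lrp8, a reelin receptor that also binds such complexes, was at 21.0 FPKM in the sorted cells and 0.969 in pancreas. Lrp1, the main receptor of serpin and protease complexes, was at 49.5 FPKM in the sorted cells and 8.54 in pancreas. Vldlr, a related receptor, had 5.69 FPKM in the sorted cells and 3.85 in pancreas, which counts toward neither sample. Lrpap1, itself no clearance receptor, was at 17.0 FPKM in the sorted cells and 30.1 in pancreas. It was the only member at 1 FPKM with the lower value in the sorted cells.

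**Figure D5:**
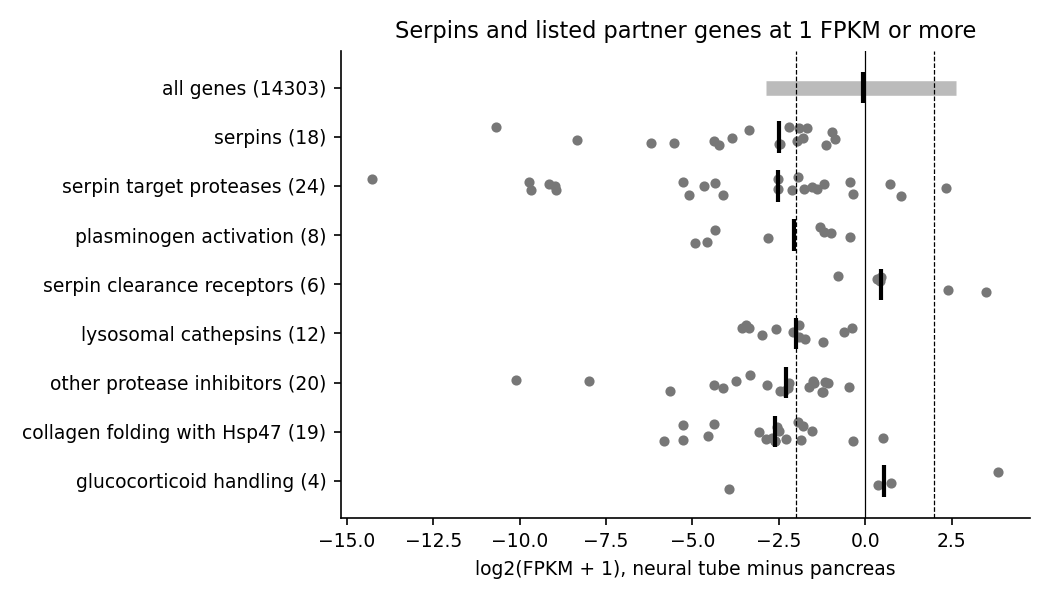
Difference of log2(FPKM + 1), neural tube minus pancreas, for genes that reached 1 FPKM in at least 1 sample, with the number of genes in brackets. Each grey point is a gene with vertical jitter, black bars are medians, the grey band spans the 5th to 95th percentile of all genes, and dashed lines mark differences of 2. All 18 serpins lie left of 0 with a median of -2.48, and the clearance receptor list, which includes Lrpap1, has a median of 0.44.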

How the data were processed

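RNA was sequenced from 1 neural tube and 1 pancreas sample. The authors deposited FPKM values, 1 per gene and sample. The submitters' processing notes name TopHat2 2.0.4, Cuffdiff 2.0.2, CASAVA and TopHat and the build mm9, in no stated order. For the annotation, filters and strand setting, the sources used here give nothing. RNA came, per the labels' protocols, from a column kit for sorted cells and from Trizol for pancreas.

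Differences, rules of size, sums and shares were computed with Python 3.11.15 and pandas 2.3.3 from the FPKM values with a pseudocount of 1. The rule was tested on simulated data. All 63 serpins matched GENCODE M1 by symbol. Coding sequences were aligned end to end for identity.

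Named were all serpins that reached 1 FPKM, and of each partner list the 2 largest and 2 smallest differences among members at 5 FPKM. Some genes the rule names are left out of the text and not reported here. Other named genes were chosen after their values were seen. The members and lists were chosen with earlier results of these data known. The 12 alternatives were 2 pseudocounts, 2 minimums, 5 rescalings, 2 fold rules and a stricter similarity. Fragment counts were not used, so intervals are not given. The remaining 16 samples (chromatin immunoprecipitation, input and FAIRE) are not analysed here.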

Additional observations from a re-analysis of the deposited data

How the results depend on the processing

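All 18 named serpins kept the lower value in neural tube under the 5 rescalings, but this was fixed by the sizes involved. The largest multiplier of the neural tube values was 1.54, with equal totals. The smallest pancreas to neural tube ratio of these serpins was 1.88, so no rescaling could turn their order. Under the 11 alternatives that bear on the calls, 0 serpins were called toward neural tube. The count called toward pancreas was 10 as reported and 6 with a pseudocount of 5 FPKM, which lowered the counts of all genes from 1278 to 600 toward pancreas and from 1106 to 512 toward neural tube. Rescaling to equal totals gave 1909 toward neural tube. A fold rule of 2 times gave 2690 toward pancreas and 2494 toward neural tube, and one of 8 times gave 653 and 546. The serpin median of -2.48 was -4.50 with a pseudocount of 0.1, -1.58 with one of 5, -0.0901 with no minimum, where genes near 0 enter, and -4.06 at 10 FPKM. The 1 similar serpin became 3 with no minimum, equal totals, the housekeeping list or without the 50 highest genes, and 0 with the upper quartile or within 1.5 times. The cause was not tested beyond each alternative's construction.

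Rescaling moved the median of genes at 1 FPKM in both samples from 0.02 to between -0.20 and 0.58. The median of all genes at 1 FPKM in either turned to 0.50 with equal totals, 0.34 with the housekeeping list, 0.26 without the highest genes and 0.00420 at 10 FPKM. That of the housekeeping list turned to 0.17 with equal totals, and that of megakaryocyte and platelet markers to 0.25 with a pseudocount of 0.1. Of the recomputed differences of the 18 serpins, 202 kept their call or their lack of one, 11 lost a call and 3 gained one. The 202 include serpins not called as reported, and the stricter similarity, which cannot change a call. No paired analysis was possible because each tissue has 1 pooled value. Without replicates, no error can be set on any difference.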
